A study of Mus musculus with 4 samples.

Results

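In all, 10 genes of antigen presentation were followed in sorted cerebral cells of mice with and without induced endothelial deletion of Mgp, the gene of matrix Gla protein, an inhibitor of BMP signalling. They were B2m, H2-K1, H2-D1, Tap1, Tap2, Tapbp and Nlrc5 of the class I pathway, and Cd74, H2-Aa and H2-Ab1 of the class II pathway. The members were chosen by symbol from a fixed list of 10 names, and all 10 were found among the 24873 genes of the deposited table. The 7 class I genes fell in the tamoxifen group, with log2 fold changes from -1.68 to -1.16, and the 3 class II genes rose by 3.88 to 4.40. The class I direction turned when the libraries were instead set to an equal level of endothelial marker genes, as described after the pathway genes. That scaling raised the median log2 fold change of all 20485 genes tested by 2.98, and 17960 of them were called higher under it.

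The study deposited 2 control libraries and 2 tamoxifen libraries. Every library came from mice that joined the VE-cadherin cre/ERT2 transgene to homozygous Mgp fl/fl alleles, given in the labels as Cdh5cre with Mgpflox/flox, so the control mice carried the recombinase and the floxed alleles too. Tamoxifen was started at 10 weeks of age at a daily dose of 75 mg/kg and was given on 5 days to the tamoxifen group alone, and RNA was taken on day 9. The recombinase is driven by the promoter of VE-cadherin (Cdh5), an endothelial adhesion gene that is also active in the endothelium from which blood cells arise. Cells of 3 mice, males and females mixed, were pooled for each library, so that 1 value stands for a pool and differences between mice within it were not measured. No group given tamoxifen without floxed Mgp was analysed here, and the effects of the drug and of the deletion cannot be told apart. The methods describe cells sorted as CD31+CD45-, whereas the labels name the cells by a tdTomato reporter in brain.

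The values are normalized counts, that is, reads per gene divided by 1 factor per library. The libraries held between 35387438 and 49799321 reads assigned to genes. Mgp itself was measured at 1094 and 1352 normalized counts in the controls and at 945 and 909 in the tamoxifen group, a log2 difference of -0.39 ± 0.18 (SE, n = 2 per group, limma, adjusted p = 0.0986). No change in Mgp thus passed the test in these libraries. By real-time PCR, the paper reported that Mgp decreased progressively after tamoxifen in sorted cerebral endothelial cells. The 12 endothelial marker genes were abundant in the controls and fell in the tamoxifen group, from summed levels of 1115570 and 1108560 normalized counts to 194459 and 99710. Among them Pecam1, which encodes the CD31 of the sort, fell from 83681 and 88796 to 15987 and 8973. Cdh5 fell from 79151 and 86328 to 15585 and 8508. Ptprc, which encodes the CD45 used to remove leukocytes, rose from 50.7 and 83.9 to 1423 and 1119. The 8 neutrophil markers summed to 297 and 232 in the controls and to 109142 and 81330 after tamoxifen, and the 8 pluripotent cell markers to 71.2 and 98.9 against 49891 and 38981. Of 8 astrocyte and neuron markers 6 rose (sums of 27270 and 31615 against 136500 and 288027), and of 6 pericyte markers 1 rose (32318 and 60482 against 41470 and 82717). The part of these cell types in the results for the presentation genes was not tested. In pooled cells, fewer cells of a type and less RNA per cell cannot be told apart.

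Class I molecules show peptides from inside the cell to cytotoxic T cells. Their heavy chains pair with beta-2-microglobulin in the endoplasmic reticulum, receive peptides that the proteasome makes and the TAP transporter carries in, and move to the surface of nearly every nucleated cell, brain endothelium included. Class II molecules show peptides taken up from outside to helper T cells, are made mainly by B cells, dendritic cells and macrophages, and can be induced in other cells by interferon gamma. NLRC5 is the coactivator for class I promoters and CIITA for class II promoters, and both work through a shared promoter module of X and Y boxes bound by RFX, CREB and NF-Y proteins.

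Sequences of the 250 bases before the RefSeq transcription start are shown because this shared module can be read in both classes. These starts differ in part from the GENCODE M39 gene spans given below. By those spans the H2-D1 window and most of the B2m window lie within the gene. The RefSeq promoter table (build GRCm38.p6) held entries for 6 of the 10 members, B2m, H2-K1, H2-D1, Tap1, Tapbp and H2-Aa, and for none of Tap2, Nlrc5, Cd74 and H2-Ab1. Each sequence printed matched exactly 1 place in GRCm39, at chr2:121977918-121978167 on the plus strand for B2m, chr17:34219308-34219557 on the minus strand for H2-K1 (the second of 2 entries), chr17:35481820-35482069 on the plus strand for H2-D1 and chr17:34506798-34507047 on the minus strand for H2-Aa. They are written 5′ to 3′ on the strand of the gene, and capitals mark matches on either strand to GGGATTCCC (a kappaB core), AANNGAAA (an IRF core), TGACG (the core of the X2 box) and CCAAT (the Y box).
B2m: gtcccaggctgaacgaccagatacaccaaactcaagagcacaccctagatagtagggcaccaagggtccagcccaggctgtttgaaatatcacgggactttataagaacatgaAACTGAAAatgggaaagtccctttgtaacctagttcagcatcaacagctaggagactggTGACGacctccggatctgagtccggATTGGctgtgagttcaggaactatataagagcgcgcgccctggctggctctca
H2-K1: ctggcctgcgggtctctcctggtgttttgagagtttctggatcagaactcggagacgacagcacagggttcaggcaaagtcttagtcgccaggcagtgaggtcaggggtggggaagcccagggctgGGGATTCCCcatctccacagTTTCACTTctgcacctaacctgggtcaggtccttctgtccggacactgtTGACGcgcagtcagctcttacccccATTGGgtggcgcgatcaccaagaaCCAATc
H2-D1: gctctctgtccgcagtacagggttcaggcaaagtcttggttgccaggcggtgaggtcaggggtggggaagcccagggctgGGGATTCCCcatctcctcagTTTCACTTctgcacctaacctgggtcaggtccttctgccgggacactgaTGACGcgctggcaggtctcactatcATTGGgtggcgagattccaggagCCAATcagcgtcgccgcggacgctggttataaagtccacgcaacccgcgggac
H2-Aa: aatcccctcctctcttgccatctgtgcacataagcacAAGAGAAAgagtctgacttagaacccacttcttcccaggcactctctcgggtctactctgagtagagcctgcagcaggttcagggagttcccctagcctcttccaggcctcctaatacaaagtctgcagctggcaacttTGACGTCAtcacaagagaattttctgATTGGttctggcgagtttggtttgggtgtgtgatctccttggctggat

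All 4 of these promoters held an X2 core followed by a Y box, whichever direction the gene took. The 2 promoters not printed differed. Tap1 had its Y box before its X2 core (-222 to -218 against -86 to -82), and Tapbp held Y boxes but no X2 core. In B2m the X2 core lay at -78 to -74 and the Y box at -53 to -49 from the start, and in H2-Aa, a class II gene, the X2 core lay at -74 to -70 and a Y box at -48 to -44. In H2-Aa the X2 letters matched on both strands, and these matches overlap (-71 to -67 for the other). H2-K1 and H2-D1, the classical class I heavy chains, were alike over 169 of 204 aligned bases (82.8% without gaps). They were the only ones of the 6 with the kappaB core, at -124 to -116 in H2-K1 and -170 to -162 in H2-D1. Over the 6 promoters the kappaB core was in 2, the IRF core in 4, the X2 core in 5 and the Y box in 6. The same letters were in 0.301%, 21.3%, 17.8% and 33.8% of 32851 promoter windows of that length in the table. These matches describe letters in a window and do not show that a protein was bound.

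Most members lie in the major histocompatibility complex. In GRCm39 with GENCODE M39, Tapbp spans chr17:34134873-34148267, H2-K1 chr17:34214987-34219321, Tap1 chr17:34405996-34416199, Tap2 chr17:34422501-34435829, H2-Ab1 chr17:34476663-34488393, H2-Aa chr17:34493404-34506798 and H2-D1 chr17:35481691-35486475. H2-K1 and H2-Aa are on the minus strand. Genes of this region moved in opposite directions with the authors' size factors, H2-Ab1 and H2-Aa being higher and the nearby Tap2 and H2-K1 lower, though at equal endothelial marker level all were higher. B2m lies at chr2:121977957-121983594, Nlrc5 at chr8:95160984-95253900 and Cd74 on chromosome 18.

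The class I light chain B2m was the most abundant member. It was measured at 27699 and 32582 normalized counts in the controls and at 15829 and 10057 after tamoxifen, which is 30140 ± 3453 against 12943 ± 4082 (mean ± SD, n = 2 per group). The groups did not overlap. The log2 fold change was -1.25 ± 0.26 (SE, limma, adjusted p = 0.00423). B2m overlaps Patl2 on the opposite strand in the annotation, but Patl2 had at most 103 normalized counts in any library.

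H2-K1, which encodes the K heavy chain, was measured at 10976 and 17148 in the controls and at 7602 and 4945 in the tamoxifen group. Both tamoxifen libraries lay below both controls, although the controls were far apart. The change was -1.16 ± 0.28 (adjusted p = 0.00842), the smallest among the 10 members. H2-D1, the D heavy chain, was at 19832 and 27563 in the controls and at 9092 and 5831 after tamoxifen, with no overlap and the largest class I change, -1.68 ± 0.27 (adjusted p = 0.00111). Of the 100-base windows of the H2-D1 transcript, 4.61% occur in other transcripts, led by H2-Q1, and none of H2-K1 do, so little of either count could be split between paralogues. Within each library the ratio of H2-K1 to H2-D1 was 0.553 and 0.622 in the controls and 0.836 and 0.848 in the tamoxifen libraries. The balance of the heavy chains therefore differed between the groups without overlap whatever factor a library was divided by, though with 2 libraries against 2 an exact permutation test cannot give a two-sided p below 0.333. Single genes likewise did not overlap in 82.3% of those tested, and the share over gene pairs was not counted.

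Tap1 and Tap2 encode the paired subunits of the peptide transporter, and Tapbp encodes tapasin, which holds empty class I molecules at it. Tap1 was measured at 3491 and 3688 normalized counts in the controls and at 1782 and 1218 in the tamoxifen libraries, a change of -1.28 ± 0.20 (adjusted p = 0.00114). Tap2 was at 2305 and 2558 against 957 and 754, a change of -1.51 ± 0.18 (adjusted p = 0.00029), with the smallest standard error among the members. Tapbp was at 9716 and 11062 against 4304 and 3152, a change of -1.49 ± 0.19 (adjusted p = 0.000432). In each of these 3 genes the controls lay close together and clear of the tamoxifen libraries. Tap1 shares 743 annotated bases with Psmb9 and Tap2 shares 3148 with Gm15821, each on the opposite strand. Tapbp shares 3422 with Zbtb22 on the same strand. The strand setting of the counting was not stated.

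Nlrc5, the class I coactivator, was measured at 1112 and 884 normalized counts in the controls and at 487 and 341 after tamoxifen. It fell by 1.28 ± 0.25 on the log2 scale (adjusted p = 0.00296), close to the median of the 7 class I genes, -1.28. It was also the one member with more counts in the first control library than in the second, the other 9 being higher in the second. Nlrc5 shares 748 annotated bases with 9330175E14Rik on the opposite strand.

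Cd74 encodes the invariant chain, which guides class II molecules to the compartment where they meet peptide. It was measured at 54.8 and 105 normalized counts in the controls, from 40 and 84 reads, and at 1573 and 1080 after tamoxifen, from 1451 and 1502 reads. The means were 16.6 times apart, and the log2 fold change was 4.08 ± 0.37 (adjusted p = 9.37e-05).

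H2-Aa and H2-Ab1 encode the alpha and beta chains of the class II A molecule. H2-Aa was measured at 6.85 and 53.8 normalized counts in the controls, from 5 and 43 reads, and at 513 and 373 in the tamoxifen libraries. The controls thus differed widely, and its change of 4.40 ± 0.83 (adjusted p = 0.00265) carried the largest standard error among the members. It was 2.999 without the first control library and 5.80 without the second. H2-Ab1 was at 20.5 and 33.8 in the controls, from 15 and 27 reads, and at 532 and 302 after tamoxifen, a change of 3.88 ± 0.47 (adjusted p = 0.0003). H2-Aa shares 2563 annotated bases with H2-Eb1 on the opposite strand. All 3 class II genes were thus present at low level in the controls, above the floor of 3 reads, and none overlapped between the groups.

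**Figure D1:**
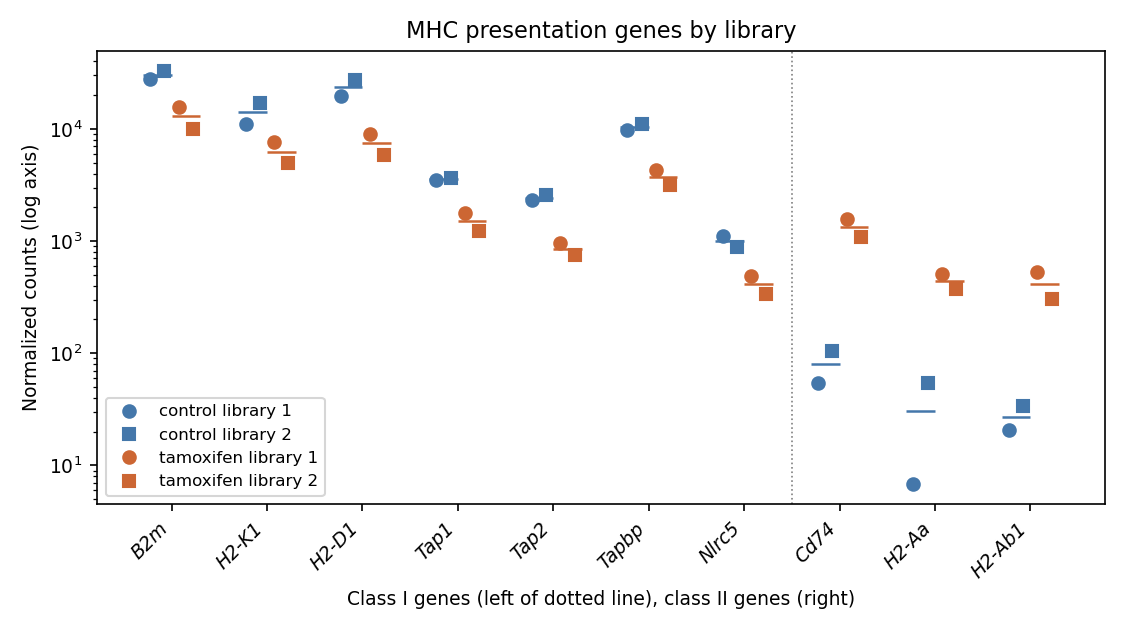
Normalized counts (log axis) of the 10 presentation genes in each control (blue) and tamoxifen (orange) library, with circles for the first and squares for the second library and short lines for the group means of 2. The 7 class I genes lie lower in both tamoxifen libraries with the authors' size factors, a direction that turns at equal endothelial marker level, and the 3 class II genes lie higher, between 302 and 1573.

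All 10 members passed the filter on low values and all 10 were called at an adjusted p under 0.05 and a log2 fold change beyond 1. Over all 20485 genes tested, 28.6% were called higher and 16.0% lower, and the groups did not overlap in 82.3%. Of the 10 members, 3 were called higher, near the background share, 7 were called lower, and the groups did not overlap in any of the 10, which is little more than over all genes. The median log2 fold change was 4.08 over the class II genes and -1.28 over the class I genes, against 0.05 over all genes tested. In all 10 members, whether higher or lower than in the controls, the first tamoxifen library had more normalized counts than the second, as in 12 of 12 endothelial markers. This order was not particular to these genes. The neutrophil (109142 and 81330) and pluripotent cell (49891 and 38981) sums had it too. The pericyte (41470 and 82717) and the astrocyte and neuron (136500 and 288027) sums had the opposite order. The share over all genes was not counted. Leaving out a tamoxifen library ended some calls. Without the first, H2-K1 (adjusted p = 0.0904), Nlrc5 (0.0501), Cd74 (0.052), H2-Aa (0.167) and H2-Ab1 (0.0589) were no longer under 0.05, and without the second, B2m (0.0702), H2-K1 (0.196), H2-D1 (0.0769), Nlrc5 (0.0853) and H2-Aa (0.147) were not, while Tap1, Tap2 and Tapbp stayed under it.

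Levels can be set against each other per kilobase of transcript. In the controls the order of mean normalized counts per kilobase was B2m (27753), H2-D1 (11194), H2-K1 (8686), Tapbp (3488), Tap1 (1156), Tap2 (612), Nlrc5 (132), Cd74 (55.9), H2-Aa (26.9) and H2-Ab1 (22.4). Over the 2 control libraries the values of H2-D1 and H2-K1 overlapped, as did those of Cd74 and H2-Aa and of H2-Aa and H2-Ab1, and those of the other neighbours did not. Compared within each control library, H2-D1 stood above H2-K1 and Cd74 above H2-Aa in both. H2-Aa stood below H2-Ab1 in the first (6.07 against 17.0) and above it in the second (47.7 against 27.9). After tamoxifen the order was B2m (11918), H2-K1 (3875), H2-D1 (3525), Tapbp (1252), Cd74 (927), Tap1 (483), H2-Aa (393), H2-Ab1 (344), Tap2 (215) and Nlrc5 (54.6). Cd74, below Nlrc5 in the controls, thus stood above Tap1 after tamoxifen, where the neighbours H2-K1 and H2-D1, Tapbp and Cd74, Tap1 and H2-Aa, and H2-Aa and H2-Ab1 overlapped. Compared within each tamoxifen library, all these genes stood in the order of the means.

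The other class I and class I-like chains were split. Of 18 listed by name, 17 were in the table and 16 were tested, of which 6 were called higher, 7 lower and 3 were not called, with a median log2 fold change of 0.05. H2-Q1, H2-Q6 and H2-Q10 had control means under 10 and passed the filter on low values only through the tamoxifen libraries. They could hardly have been called lower, and the counts and the median include them. The 7 lower chains were among the abundant ones. They were H2-Q4 (-1.65 ± 0.28), H2-T22 (-1.29 ± 0.20), H2-T23 (-2.68 ± 0.35), H2-T24 (-2.96 ± 0.21), H2-M3 (-1.67 ± 0.29), the neonatal Fc receptor Fcgrt (-2.37 ± 0.29) and the iron regulator Hfe (-2.37 ± 0.20). At equal endothelial marker level these 7 and all 16 tested chains were positive, but 17960 of all 20485 genes were called higher there. H2-T23, the mouse Qa-1 chain that shows class I signal peptides, was at 8232 and 8481 normalized counts in the controls and at 2012 and 843 after tamoxifen. Fcgrt, which also pairs with beta-2-microglobulin and carries IgG and albumin through endothelium, was at 19634 and 21242 against 5446 and 2867.

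The 6 higher chains were scarce in the controls. H2-Q10, known as a chain secreted by liver, was at 0 and 11.3 normalized counts in the controls and at 139 and 103 after tamoxifen (5.10 ± 1.08). H2-Q1 had no read in either control and was at least 14.6-fold higher after tamoxifen, against a floor of 3 reads per control library. The others were H2-Q6 (3.53 ± 0.73), H2-M5 (2.85 ± 0.34), H2-Q2 (1.70 ± 0.56) and Cd1d1, which presents lipids to NKT cells and was at 172.6 and 172.7 against 370 and 536. The 3 chains not called were Mr1, which presents vitamin metabolites (-0.17 ± 0.16), H2-T10 (0.98 ± 0.36) and H2-Q7 (0.27 ± 0.56). Windows of 100 bases are shared with other transcripts for 21.9% of H2-Q7, 13.8% of H2-T22, 11.2% of H2-Q6, 10.2% of H2-T10 and 8.08% of H2-T23, so these counts are uncertain. Sharing was not checked for H2-Q1, H2-Q2, H2-Q10 and H2-M5, so their counts may be uncertain too.

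Genes that load and trim class I peptides differed among themselves. Tapbpl, the second peptide editor, fell from 1445 and 1616 normalized counts to 435 and 354 (-1.96 ± 0.20), and Erap1, which trims peptides in the endoplasmic reticulum, fell from 5212 and 5149 to 1746 and 1454 (-1.70 ± 0.16). The general chaperones did not pass both thresholds. Calr was at -0.12 ± 0.24, Pdia3 at -0.05 ± 0.20 and Canx at 0.72 ± 0.20 (adjusted p = 0.0155), and the peptidase Lnpep was at -0.51 ± 0.19. Of the 6 genes, 2 were called lower and 0 higher, with a median of -0.31. All 6 were positive at equal endothelial marker level, where 17960 of all 20485 genes were called higher.

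The immunoproteasome is a form of the proteasome whose induced subunits replace constitutive ones and favour peptides that fit class I. Psmb8 was measured at 1099 and 1369 normalized counts in the controls and at 441 and 279 after tamoxifen (-1.80 ± 0.27). Psmb10 fell by 1.49 ± 0.21 and Psme1, of the PA28 activator, fell by 1.02 ± 0.20 on the log2 scale. Psmb9 was at -0.78 ± 0.27 (adjusted p = 0.0365) and Psme2 at -0.56 ± 0.17 (adjusted p = 0.0228), short of the fold limit. Thus 3 of 5 were called lower and 0 higher, with a median of -1.02 that turned to 1.97 at equal endothelial marker level. The constitutive counterparts Psmb5 (0.16 ± 0.24), Psmb6 (0.19 ± 0.19) and Psmb7 (0.48 ± 0.16) were not called.

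Each ratio of an induced subunit to the one it replaces is independent of the factor a library was divided by. Psmb8 to Psmb5 was 2.05 and 1.97 in the controls and 0.55 and 0.478 after tamoxifen. Psmb10 to Psmb7 was 1.38 and 1.495 against 0.409 and 0.332, and Psmb9 to Psmb6 was 0.211 and 0.221 against 0.123 and 0.099. All 3 ratios were lower in both tamoxifen libraries, without overlap, and the smallest exact p that 2 against 2 allows, 0.333, applies to each. Lack of overlap was common, being found in 82.3% of single genes tested, and its share over gene pairs was not counted.

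**Figure D2:**
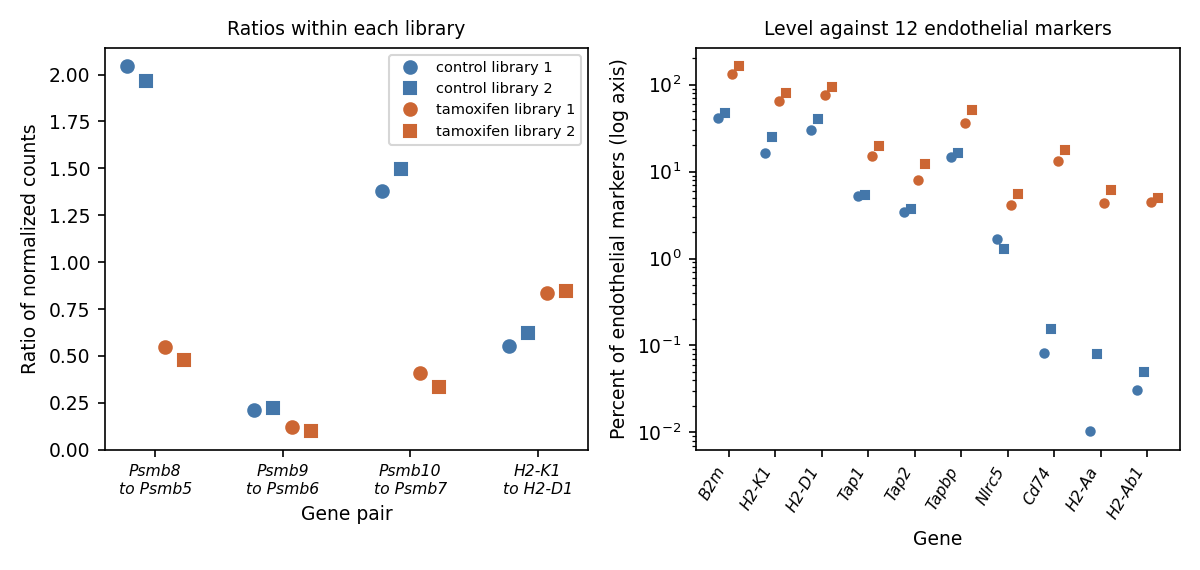
Left, ratios of normalized counts within each library for 3 pairs of induced and constitutive proteasome subunits and for H2-K1 to H2-D1; right, each presentation gene as a percent of the geometric mean of 12 endothelial markers (log axis), with blue for control and orange for tamoxifen libraries and circles and squares for the first and second. The proteasome ratios lie lower and the H2-K1 ratio higher after tamoxifen, and against endothelial markers all 10 genes lie higher.

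Other genes of the class II pathway moved with the 3 members. Of 11 names 10 were in the table and 8 were tested, of which 6 were called higher and 0 lower, with a median of 2.76. Among these 6, H2-DMb1 and H2-DMb2 had control means under 10 and passed the filter on low values only through the tamoxifen libraries. H2-Eb1, the beta chain of the E molecule, rose from 24.7 and 57.6 normalized counts to 428 and 276 (3.15 ± 0.50). H2-DMa (2.36 ± 0.42), H2-DMb1 (4.17 ± 0.82) and H2-DMb2 (3.61 ± 0.71) encode the editor that exchanges the invariant chain fragment for peptide. Ifi30, a thiol reductase of the antigen-processing compartment, rose from 84.9 and 125 to 1575 and 1191 (3.72 ± 0.29), and Ctss, the protease that trims the invariant chain, rose from 245 and 393 to 1019 and 698 (1.44 ± 0.30). H2-Ob, a brake on that editor known from B cells, was at 107 and 96.4 against 114 and 80.5 (-0.08 ± 0.41). Its partner H2-Oa had no read in the controls and was at 9.75 and 23.7 after tamoxifen, at least 4.26-fold higher, and the protease Lgmn was at 0.64 ± 0.17.

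Ciita, the class II coactivator, was measured at 27.4 and 11.3 normalized counts in the controls and at 63.9 and 63.3 after tamoxifen. It rose by 1.79 ± 0.60 on the log2 scale (adjusted p = 0.0333), while Nlrc5 was lower with the authors' size factors. Of the DNA-binding partners that the coactivators share, Rfxap fell by 1.06 ± 0.19, a direction that turned at equal endothelial marker level. Creb1 (-0.90 ± 0.18), Nfya (-0.59 ± 0.16) and Nfyb (0.67 ± 0.16) were among the 6 of 8 regulators not called.

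Interferon signalling genes, which act upstream of both pathways, fell in 9 of the 11 described here, with 0 higher and a median of -1.67. At equal endothelial marker level 10 of the 11 were positive, but 17960 of all 20485 genes were called higher there. Irf7 was at 7987 and 9420 normalized counts in the controls and at 1090 and 465 after tamoxifen (-3.60 ± 0.35). Irf1, which binds the IRF site of class I promoters, fell from 3860 and 4752 to 2056 and 1285 (-1.40 ± 0.24). The receptor chains Ifnar1 (-2.29 ± 0.23), Ifnar2 (-2.48 ± 0.21) and Ifngr1 (-1.04 ± 0.15), and Irf9 (-2.28 ± 0.21), Stat2 (-1.95 ± 0.18), Irf2 (-1.67 ± 0.19) and Jak2 (-1.49 ± 0.17), fell as well. Ifngr2 (-0.71 ± 0.16) and Jak1 (-0.02 ± 0.15) were not called. Of the genes known to respond to interferon gamma, the class II genes and Ciita were thus higher while the class I genes and Irf1 were lower with the authors' size factors.

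**Figure D3:**
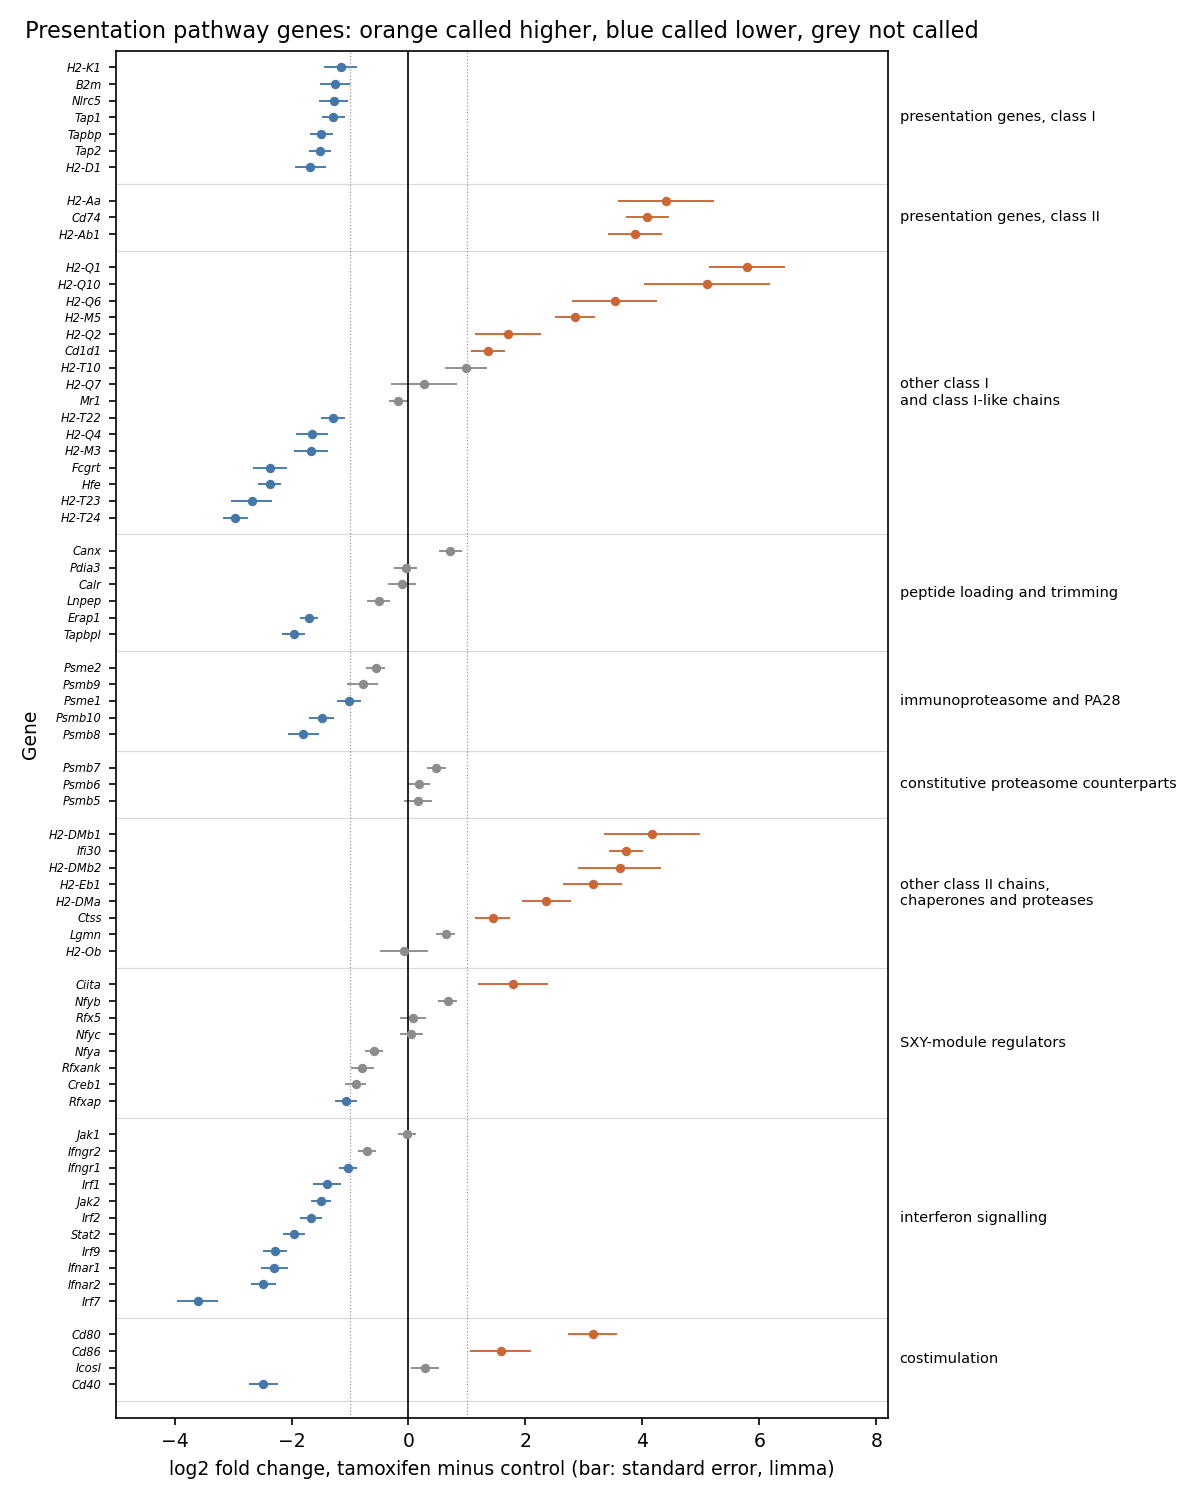
Log2 fold changes (tamoxifen minus control, with standard errors from limma, 2 libraries per group) of the tested presentation pathway genes by list, in orange where called higher, blue where called lower and grey otherwise, with dotted lines at the fold limit of 1. The class I members, immunoproteasome and most interferon genes lie to the left and most class II genes to the right, and the former turn at equal endothelial marker level.

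The fall of the class I genes was smaller than that of the endothelial markers, whose 12 log2 fold changes ranged from -3.43 to -2.75 with a median of -2.91. Expressed as a percent of the geometric mean of these markers in the same library, B2m was 41.5% and 47.7% in the controls and 133% and 164% after tamoxifen. Nlrc5 was 1.67% and 1.29% against 4.10% and 5.55%, and Cd74 was 0.0821% and 0.154% against 13.2% and 17.6%. With every library set to the same endothelial marker level, a scaling chosen after the data were seen, all 7 class I genes were higher in the tamoxifen group, by 1.30 to 1.82, and the class II genes by 6.86 to 7.39. This scaling moves the median of all 20485 genes by 2.98, so against the median gene the class I genes remained lower by 1.21 to 1.73 on the log2 scale, and 17960 genes were called higher.

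Other scalings kept the direction. Setting equal totals moved the median of all genes by 0.47 and quantile normalization by -0.28. The class I changes ranged from -1.21 to -0.69 under the first and from -1.91 to -0.55 under the second, with medians of -1.33 and -0.86 relative to all genes. Under equal totals 3 class I genes, H2-D1, Tap2 and Tapbp, were past both thresholds, and under quantile normalization 5. Under equal totals B2m (-0.78), Tap1 (-0.81) and Nlrc5 (-0.81) kept an adjusted p under 0.05 but fell short of the fold limit, and H2-K1 missed both limits (adjusted p = 0.0628). Under quantile normalization B2m (adjusted p = 0.0688) and H2-K1 (0.0799) missed both. The class II changes stayed between 2.89 and 4.85.

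**Figure D4:**
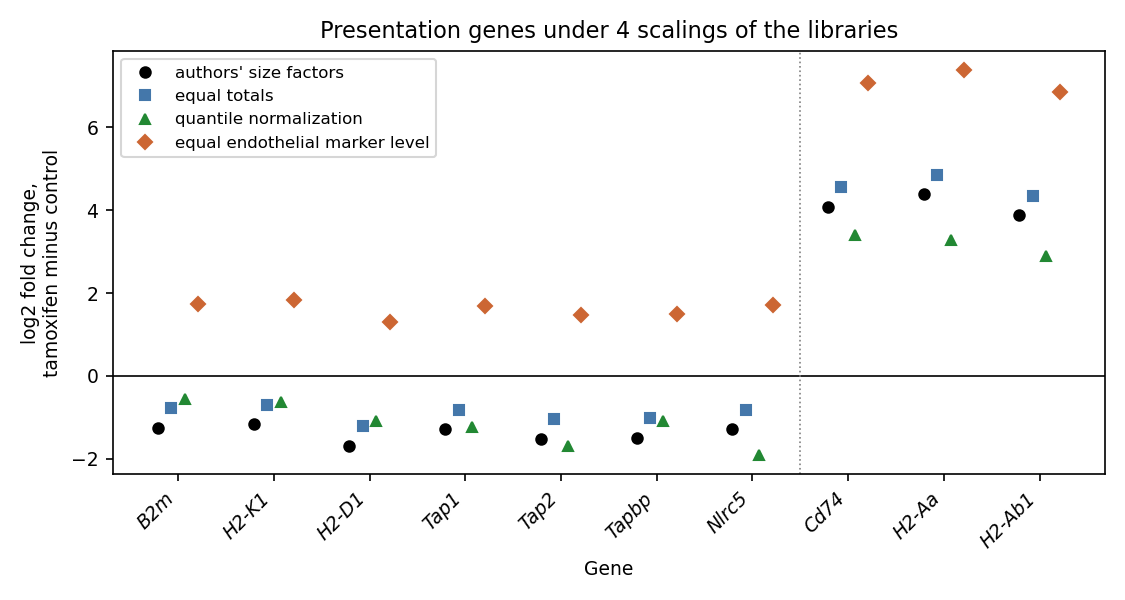
Log2 fold change (tamoxifen minus control) of the 10 presentation genes with the authors' size factors (black), equal totals (blue), quantile normalization (green) and equal endothelial marker level (orange), 1 point per gene and scaling. The 7 class I genes lie below 0 under the first 3 scalings and above 0 under the last, and the 3 class II genes lie above 0 under all 4.

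Most markers of microglia, macrophages and B cells were higher after tamoxifen, while those of dendritic cells, which also carry class II, were divided. Median log2 fold changes were 1.45 for microglia and macrophages and 4.75 for B cells, against 8.36 for neutrophils and 8.94 for pluripotent cells. The summed level of the 3 class II members was 82.2 and 193 normalized counts in the controls and 2617 and 1755 after tamoxifen. Of 11 microglia and macrophage markers, 8 rose and 0 fell, and their sums were 1711 and 3250 in the controls and 6169 and 5288 after tamoxifen. Tmem119, a microglial gene, rose from 108 and 227 to 421 and 440, the complement genes C1qa, C1qb and C1qc rose as well, and Mrc1, a marker of macrophages at brain borders, rose from 50.7 and 47.6 to 703 and 531. Of the 3 markers not called, the microglial genes P2ry12 and Cx3cr1 were at 0.55 ± 0.36 and 0.10 ± 0.34, and Csf1r, shared by both, was at 0.77 ± 0.29. Of 7 B cell markers in the table, 6 rose, and without Ebf1, which fell from 8120 and 8062 to 2705 and 2707, they summed to 74.0 and 90.1 in the controls and to 3976 and 2817 after tamoxifen. Cd79b, of the B cell receptor, went from 12.3 and 12.5 to 956 and 720, and the precursor gene Igll1 from 2.74 and 1.25 to 440 and 307. Igll1, Ms4a1 and Pax5 had control means under 10 and passed the filter on low values only through the tamoxifen libraries.

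Dendritic cell markers were divided. Itgax rose from 0 and 2.50 normalized counts to 117 and 87.7 and Flt3 from 4.11 and 0 to 114 and 66.1, whereas Zbtb46, also expressed in endothelium, fell from 6325 and 5821 to 1388 and 934, and Clec9a and Xcr1 fell too. Itgax and Flt3 passed the filter on low values only through the tamoxifen libraries. The 7 markers summed to 7191 and 6454 in the controls and to 1922 and 1349 after tamoxifen. T and NK cell markers summed to 8.22 and 26.3 in the controls and to 309 and 221 after tamoxifen. Of the 7 markers only 3 were tested, the others being under the filter on low values. These 3, among them Cd4 and Nkg7, were called higher. They had control means under 10 and passed the filter only through the tamoxifen libraries, so they could hardly have been called lower. Of the macrophage and B cell markers measured (Vpreb1 was not analysed here), none was at 0 in any library, control or tamoxifen. The part of these cells in the rise of Cd74, H2-Aa and H2-Ab1 was not tested.

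**Figure D5:**
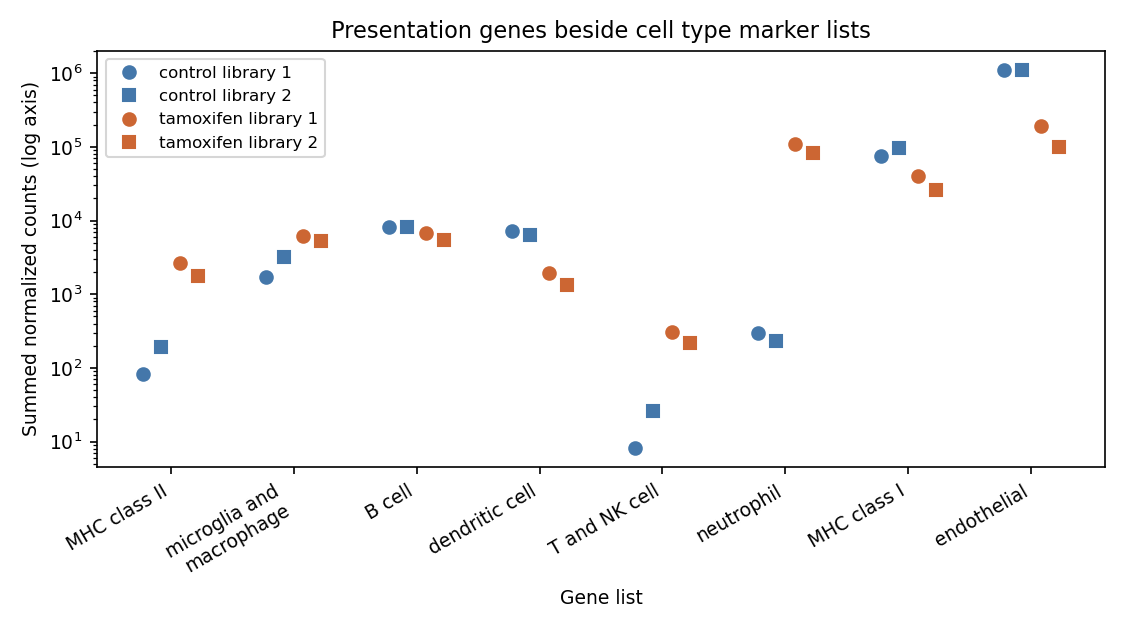
Summed normalized counts (log axis) of the class II and class I presentation genes and of 6 cell type marker lists in each control (blue) and tamoxifen (orange) library, circles for the first and squares for the second. Class II genes and the microglia and macrophage, T and NK cell and neutrophil lists lie higher after tamoxifen, the B cell sum lies lower through Ebf1 and the dendritic cell sum mostly through Zbtb46, and the class I and endothelial sums lie lower with the authors' size factors, the class I direction turning at equal endothelial marker level.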

How the data were processed

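RNA-Seq of 2 control and 2 tamoxifen libraries was analysed. The authors aligned reads to GRCm39 with STAR (2.7.10a), counted them in the same step, dropped genes of low count and scaled the rest with DESeq2 (1.36.0). The kit was stranded. The annotation release, strand setting and low-count limit are not given in the sources used here. The values the authors deposited are a signal per gene, read counts divided by 1 factor per library, and 100% of them were whole multiples of 1 read (tolerance 0.01), so reads were recovered. Columns carry the letters C and A. The letter A, which no label explains, was taken to stand for AVM and hence for tamoxifen, and C for control.

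limma 3.58.1 in R 4.3.3 (lmFit, eBayes with a mean-variance trend) was fitted to log2(normalized count + 1), keeping genes whose mean was 10 or more, with Benjamini-Hochberg adjustment over 20485 genes. Fold changes are on this scale and understate low genes. A gene with a control mean under 10 passed the filter only through the tamoxifen group and could hardly be called lower. Genes were called at an adjusted p under 0.05 and a log2 fold change beyond 1, and stability of 1 gene was judged by the adjusted p. With 2 pools per group, p-values rest on the spread between pools, which eBayes draws toward a trend fitted over all genes. They do not measure a gene's own spread alone. A floor of 3 reads was used for genes absent from the controls, and it covers counting error only. The scripts were tested on simulated data, where 63 of 97 genes changed 2-fold and 84 of 94 changed 4-fold were recovered. Far fewer genes changed there than were called here, and no shift in composition was simulated. The simulation therefore does not show how the fit behaves on these libraries. Recovered reads were also tested with edgeR 4.0.16 and DESeq2 1.42.0. The limma fit was repeated with a replicate block, without the trend, with quantile normalization or equal totals, with the filter removed or raised to a mean of 100, with pseudocounts of 0.5 and 5, leaving out each library in turn, and, added after the data were seen, an equal endothelial marker level.

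Members and lists were chosen with earlier results of these data known, and the motif letters after the sequences were read. Named genes are all members, the genes called in each pathway list and up to 3 abundant others, Mgp, Pecam1, Cdh5 and Ptprc, and up to 3 abundant genes of each marker list. Other markers, and H2-Oa, were named after their values were seen. One gene of the interferon list is not reported here. Locations and transcript lengths came from GENCODE M39.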

Additional observations from a re-analysis of the deposited data

How the results depend on the processing

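Over the 10 presentation genes and 14 alternatives other than the endothelial scaling, 126 of 140 fits kept the direction and an adjusted p under 0.05, 14 kept the direction but not the adjusted p, and 0 reversed. The 3 class II genes stayed called higher in all but the fits without a tamoxifen library (0 to 3 over the libraries left out), and of the 7 class I genes 3 were called lower under equal totals, 5 under quantile normalization, 6 without the trend and 3 to 7 without a library. Without the trend H2-K1 had an adjusted p of 0.0637. A fit without 1 tamoxifen library assumes that the lone library varies like the controls. At equal endothelial marker level 10 members were called higher and 0 lower, with B2m at 1.73, H2-K1 at 1.82, H2-D1 at 1.30, Tap1 at 1.70, Tap2 at 1.47, Tapbp at 1.49 and Nlrc5 at 1.70. The replicate numbers only share a number, as same-numbered libraries deviated with a correlation of 0.025 over 2 pairs. The replicate block gave 3 genes higher and 7 lower, changed no call of a member, and called 9525 genes.

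Of all genes tested, 9151 were called (5867 higher, 3284 lower), 5934 with a filter at a mean of 100, 17979 at equal endothelial marker level and 4147 to 9700 without a library. The split was 7206 higher and 1838 lower under equal totals and 4615 higher and 5509 lower under quantile normalization. Depth limits the class II genes in the controls, where H2-Aa rests on 5 and 43 reads.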

Other observations

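Costimulatory genes, whose proteins sit beside class II molecules on presenting cells, did not move alike. Cd80 was measured at 24.7 and 30.04 normalized counts in the controls and at 233 and 268 after tamoxifen (log2 fold change 3.15 ± 0.42, SE, limma, adjusted p = 0.000471). Cd86 was at 16.4 and 21.3 against 61.8 and 53.9 (1.57 ± 0.52, adjusted p = 0.0328). Cd40, a receptor that endothelium also expresses, was at 2679 and 2845 in the controls and at 630 and 387 after tamoxifen (-2.48 ± 0.24, adjusted p = 0.000121), a direction that turned at equal endothelial marker level. Icosl was at 0.28 ± 0.24 (adjusted p = 0.332). Of the 4 genes, 2 were thus called higher and 1 lower, with a median of 0.93.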
